A study of Mus musculus with 2 samples.

Results

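The tissue inhibitors of metalloproteinases are a family of 4 genes in the mouse, Timp1, Timp2, Timp3 and Timp4. All 4 were found by symbol among the 22441 genes that both count matrices list, and they are described here across the cell classes of the heart. Timp1 was a fibroblast gene whose level in fibroblast-like cells was 2.89-fold as high in the AC8 library as in the wild-type library. Timp2 was shared by fibroblasts and macrophages and differed little there. Timp3 was a fibroblast, endothelial and mural gene that was lower in AC8 fibroblasts and endothelium. Timp4 was a capillary gene whose AC8 level in capillary-like cells was 0.31 times the wild-type level.

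The proteins of this family bind the active site of matrix metalloproteinases (MMPs) and of related proteases, and so limit how fast extracellular matrix is cut. Timp1 is known as the inducible member and also binds the tetraspanin Cd63 at the cell surface. Timp2 takes part, with the membrane-bound protease Mmp14, in the activation of the secreted proenzyme of Mmp2. Timp3 is the member that stays bound to matrix and inhibits the widest range of enzymes, including the shedding protease Adam17 and aggrecan-cutting ADAMTS enzymes, and Timp4 is known as a heart-enriched member.

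Hearts came from C57/B6 mice of 2 genotypes without treatment. The AC8 mice overexpressed adenylyl cyclase type 8, an enzyme that makes cyclic AMP, in cardiomyocytes according to the series title, and the wild-type (WT) mice were their littermates. The mice of each genotype were pooled, and the labels give neither their number nor their age nor the promoter of the transgene. Cells were sorted as CD45+CD31- leukocytes, CD45-CD31- mesenchymal cells and CD45-CD31+ endothelial cells, and equal numbers of the 3 fractions were mixed into 1 droplet library per genotype. Cardiomyocytes, in which the series title places the overexpression, had no fraction of their own. With 1 library per genotype, the differences below rest on a pair of libraries with no replicate check and no test, and the 95% intervals cover counting error only.

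The AC8 library held 4867 cells with 11076564 unique molecular identifiers (UMIs, each marking 1 captured RNA molecule) and the WT library 5800 cells with 9664932. After filtering, 3578 AC8 cells with a median of 2321 UMIs and 3546 WT cells with a median of 1884.5 UMIs remained. They formed 18 clusters in 10 classes, each named after the type whose markers led it, and 8 classes had at least 50 cells in each library. Adcy8, the gene of AC8, had 1 UMI in the AC8 library and 0 in the WT library, so these cells do not check the genotype. Cell barcodes were deposited as running numbers, so barcodes shared between the libraries could not be counted. The cluster named monocyte-like also carried the neutrophil genes S100a8, S100a9, Camp and Ngp. In the dendritic cell-like class the 6 dendritic cell markers summed to 1925 CPM in AC8 and 1761 CPM in WT. The 8 macrophage markers summed there to 6087 CPM in AC8 and 5728 CPM in WT. In macrophage-like cells those 8 summed to 17524 CPM in AC8 and 16574 CPM in WT. The NK cell-like cluster had Retnlg and S100a9 among its 10 leading genes, and its 6 neutrophil markers summed to 6994 CPM in AC8 and 2531 CPM in WT, beside 6074 CPM in AC8 and 5398 CPM in WT for 6 NK cell markers.

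Since Timp1, Timp3 and Timp4 are the members whose levels differed most between the libraries, the 300 bases around their starts are shown, from RefSeq on GRCm38.p6, running from 250 bases before the start to 50 bases after it. Capitals mark matches on either strand to the AP-1 letters TGANTCA, to TGAGTAA, the variant AP-1 letters known from Timp1, to the core letters of the cyclic AMP response element, TGACG, and to the Ets core AGGAAG. The letters of the Timp1 variant were added to the search after the Timp1 sequence had been read. Timp1 lies at chrX:20869916-20870215 on the plus strand, Timp3 at chr10:86300162-86300461 on the plus strand, and Timp4 at chr6:115252156-115252455 on the minus strand.
Timp1: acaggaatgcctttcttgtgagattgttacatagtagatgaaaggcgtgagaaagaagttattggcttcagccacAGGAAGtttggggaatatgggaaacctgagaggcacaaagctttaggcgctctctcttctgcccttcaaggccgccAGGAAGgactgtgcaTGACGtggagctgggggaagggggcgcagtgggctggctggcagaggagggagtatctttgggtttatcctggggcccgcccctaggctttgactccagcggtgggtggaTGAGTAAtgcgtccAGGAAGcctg
Timp3: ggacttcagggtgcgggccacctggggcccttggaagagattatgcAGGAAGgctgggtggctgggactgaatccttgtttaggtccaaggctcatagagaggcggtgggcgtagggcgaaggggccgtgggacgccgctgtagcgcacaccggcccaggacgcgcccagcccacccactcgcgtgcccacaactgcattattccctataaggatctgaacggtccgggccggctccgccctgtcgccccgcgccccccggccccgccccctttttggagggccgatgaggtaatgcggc
Timp4: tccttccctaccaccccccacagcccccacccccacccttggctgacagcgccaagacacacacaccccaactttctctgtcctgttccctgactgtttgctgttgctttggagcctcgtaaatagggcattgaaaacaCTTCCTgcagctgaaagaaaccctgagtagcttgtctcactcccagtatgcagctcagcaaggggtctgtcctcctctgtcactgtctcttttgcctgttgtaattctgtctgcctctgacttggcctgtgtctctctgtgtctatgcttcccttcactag

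The Timp1 window held 1 TGAGTAA, 1 TGACG and 3 AGGAAG, while the Timp3 and Timp4 windows held 1 AGGAAG each and the Timp2 window held none of these. Among 32851 mouse promoters of this length, 2.68% held TGAGTAA, 20.8% held TGACG, 35.4% held AGGAAG and 7.81% held TGANTCA, which was in no Timp window. The GC box GGGCGG, in 35.7% of promoters, matched in the Timp1, Timp2 and Timp3 windows but not in that of Timp4, and TATAAA, in 13.6%, matched in none. G and C made up 55.0% of the Timp1 window, 68.7% of Timp2, 67.0% of Timp3 and 53.3% of Timp4, against a median of 52.7% over all promoters. These matches describe letters and say nothing of binding.

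Of the 4 genes, 3 sit inside synapsin genes on the opposite strand. In GENCODE vM21 on GRCm38, Timp1 spans chrX:20870166-20874735 inside Syn1, Timp3 spans chr10:86300372-86349506 inside Syn3, and Timp4 spans chr6:115241892-115252205 inside Syn2. Timp2, at chr11:118301069-118355740, overlaps Cep295nl on its own strand. Annotated exons of Timp3 and Syn3 overlap at 1 place and those of Timp4 and Syn2 at 2 places. The labels do not say whether counting used strand, and without it reads from such a pair cannot be told apart. Syn3, the host of Timp3, had 61 UMIs in AC8 and 120 in WT fibroblast-like cells, where Timp3 had 3370 in AC8 and 5603 in WT. Syn2, the host of Timp4, had 38 UMIs over all kept AC8 and 57 over all kept WT cells, where Timp4 had 77 in AC8 and 295 in WT. In fibroblast-like cells Syn2, with 20 UMIs in AC8 and 42 in WT, had more UMIs than Timp4, with 2 in AC8 and 11 in WT.

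Each member had its own pattern over the cell classes, and among the 8 classes with enough cells the one with the highest level was the same in both libraries for all 4, and for 3 of 4 with no minimum of UMIs or with at least 2000. Levels are counts summed over a class and scaled to counts per 1000000 of that class (CPM). Timp1 and Timp2 were highest in fibroblast-like cells, which make and turn over most of the interstitial matrix. Timp3 and Timp4 were highest in endothelial-like cells, which line the vessels.

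**Figure D1:**
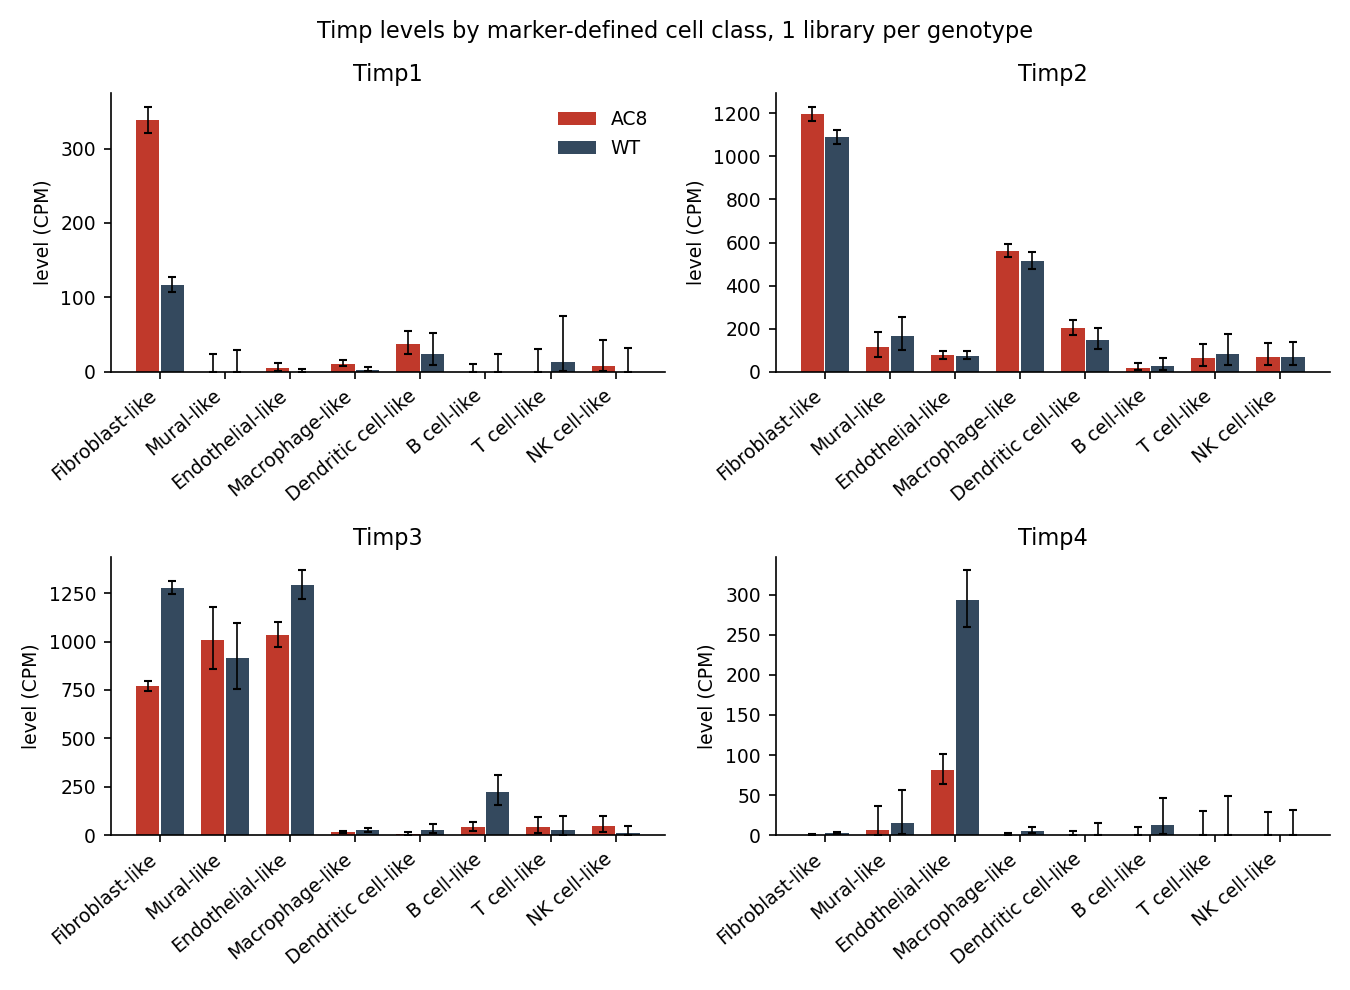
Levels of the 4 genes (CPM, linear axes) in the 8 classes with at least 50 cells per library, with AC8 bars left of WT bars and 95% counting intervals. Timp1 stood out in fibroblast-like cells and Timp4 in endothelial-like cells, while Timp2 and Timp3 each had several classes with high levels.

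For Timp1, fibroblast-like cells were at 338 CPM in AC8 and 117 CPM in WT. Dendritic cell-like cells came next, at 37.1 CPM in AC8 and 24.1 CPM in WT, apart from fibroblast-like cells by more than the intervals in both libraries. The order below them was not resolved in WT, where the intervals of all further neighbours overlapped. In mural-like and B cell-like cells Timp1 had 0 UMIs in either library, and 3 counts, taken as the one-sided limit that a count of 0 allows and so below the upper end of the two-sided interval, would be 19.3 CPM in AC8 and 23.6 CPM in WT mural-like cells.

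For Timp2, fibroblast-like cells were at 1198 CPM in AC8 and 1090 CPM in WT. Macrophage-like cells, the phagocytes resident in the heart, followed at 562 CPM in AC8 and 516 CPM in WT. These 2 steps of the order were clear of the intervals in both libraries. Below them, dendritic cell-like cells at 203 CPM in AC8 and 148 CPM in WT did not separate from mural-like cells at 116 CPM in AC8 and 165 CPM in WT, and B cell-like cells were lowest at 18.5 CPM in AC8 and 25.6 CPM in WT.

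For Timp3, the upper classes lay close together. AC8 endothelial-like cells at 1035 CPM did not separate from AC8 mural-like cells at 1010 CPM, and AC8 fibroblast-like cells followed at 770 CPM. WT endothelial-like cells at 1293 CPM did not separate from WT fibroblast-like cells at 1279 CPM, with WT mural-like cells below them at 913 CPM. Macrophage-like cells held little Timp3, 14.8 CPM in AC8 and 24.5 CPM in WT. Schwann-like cells, the glia of cardiac nerves, had Timp3 levels of 1605 CPM in 22 AC8 cells and 1965 CPM in 31 WT cells, too few cells for the order.

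For Timp4, endothelial-like cells were at 80.8 CPM in AC8 and 294 CPM in WT, above every other class by more than the intervals. Fibroblast-like cells were at 0.457 CPM in AC8 and 2.51 CPM in WT, and mural-like cells held 1 UMI in AC8 and 2 in WT. T cell-like, NK cell-like, dendritic cell-like and Schwann-like cells had no Timp4 UMI in either library.

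The question of the study was what cells beside the cardiomyocytes do when cardiomyocytes overexpress AC8, and each member was therefore compared between the libraries within a class. In fibroblast-like cells, 3 of the 4 members had at least 30 UMIs summed over both libraries. Of these, 1 (Timp1) was at least 1.5-fold higher in AC8, which 0.829% of 10620 measured genes were, and 1 (Timp3) was at least 1.5-fold lower, which 2.92% were, on the log2(CPM + 10) scale. In all endothelial-like cells 3 members were measured, none was higher, against 4.27% of 7350 genes, and 1 (Timp4) was lower, against 5.47%. In their capillary-like subtype 3 were measured, none was higher, against 5.79% of 5910 genes, and 1 (Timp4) was lower, against 7.02%. In the arterial-like subtype neither of the measured Timp2 and Timp3 was past 1.5-fold, against 9.25% of genes higher and 12.1% lower. In macrophage-like cells 3 were measured and 1 (Timp1) was higher, against 5.68% of 8471 genes, and none was lower, against 6.33%. Timp1 passed the minimum of 30 UMIs there only through its AC8 count, with 28 UMIs in AC8 and 3 in WT. That call is therefore given as a count and not as support for a difference.

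**Figure D2:**
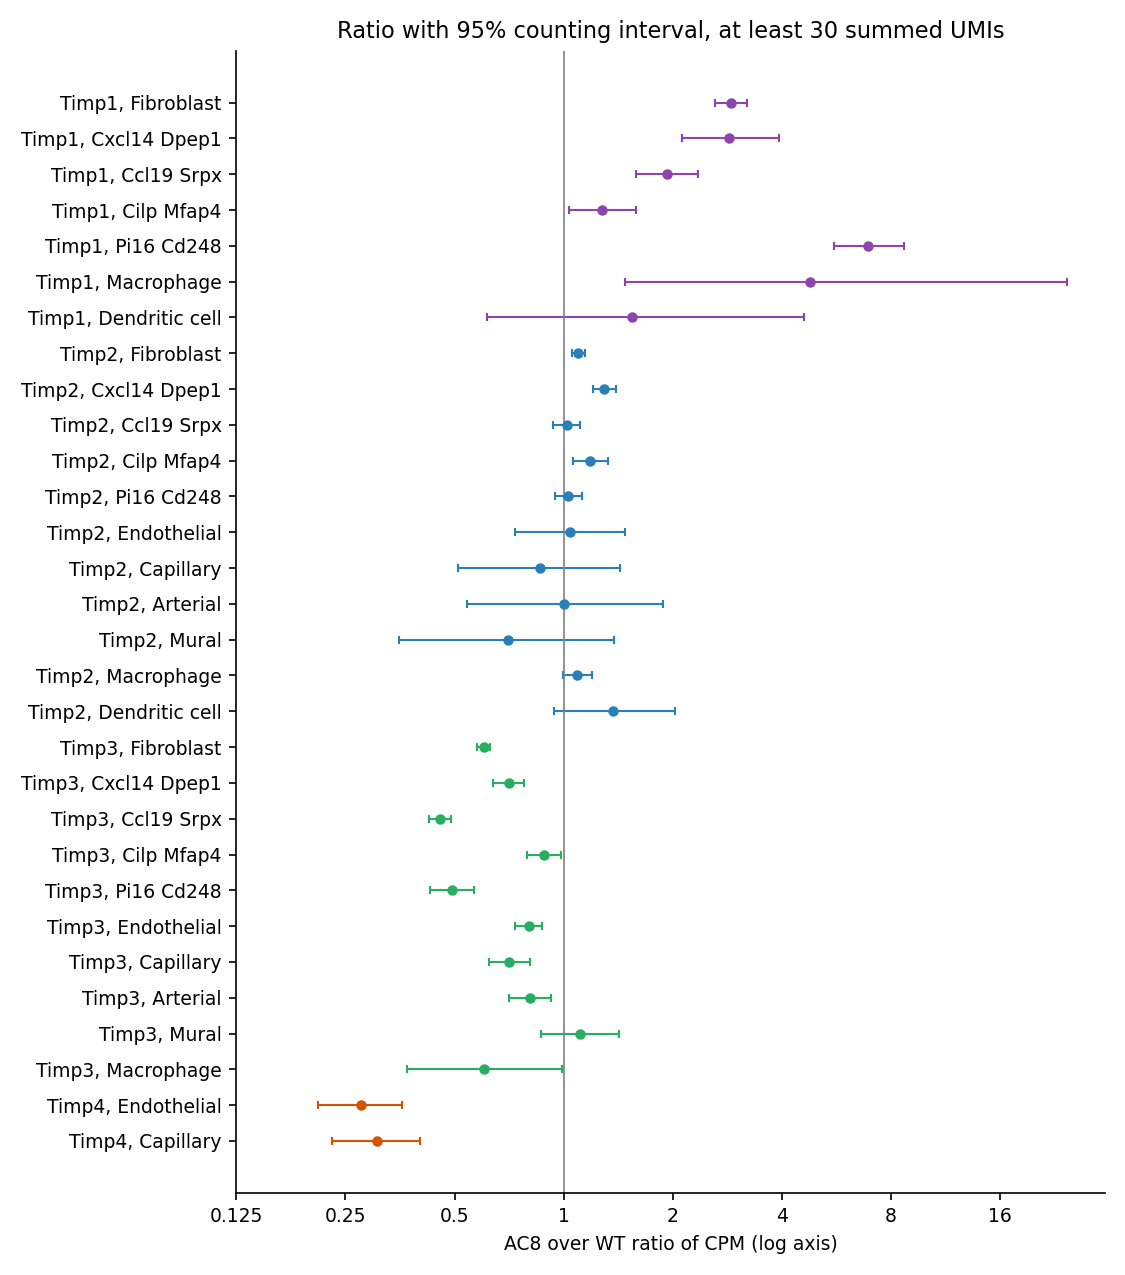
AC8 over WT ratio of CPM (log axis) for each gene and group of cells with at least 30 summed UMIs, with 95% counting intervals and a line at 1. Timp1 points lie right of the line, Timp4 points left of it, and Timp3 points left of it except in mural-like cells. Timp2 points lie on both sides. The Timp2 point farthest left is that of mural-like cells (116 CPM in AC8, 165 CPM in WT). The one farthest right is that of dendritic cell-like cells (203 CPM in AC8, 148 CPM in WT).

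Timp1 was higher in AC8 fibroblast-like cells, with 1482 UMIs in 1529 cells, against 513 UMIs in 1899 WT cells. The AC8 over WT ratio of CPM was 2.89 (2.61 to 3.20), and on the log2(CPM + 10) scale the difference of 1.45 was the second highest among the 10620 measured genes. A Timp1 UMI was seen in 33.4% of AC8 cells and 16.2% of WT cells. With every cell thinned to 1000 UMIs, since the median depth was 2735 UMIs in AC8 and 2161 in WT fibroblast-like cells, those shares were 15.6% in AC8 and 7.48% in WT. In endothelial-like cells, which gave the background with median depths of 1381.5 UMIs in AC8 and 1315 in WT, the thinned share was 0.524% in AC8 and 0 of 622 cells in WT, which allows up to 0.482%, and unthinned it was 0.699% in AC8.

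The fibroblast-like class fell into 4 subtypes named after a pair of marker genes each, and the Timp1 difference was not even across them. In the Pi16 Cd248 subtype, named for genes of adventitial-type fibroblasts, Timp1 was at 968 CPM in AC8 and 140 CPM in WT, a ratio of 6.93 (5.57 to 8.70). The Cxcl14 Dpep1 subtype had 165 Timp1 UMIs in 577 AC8 cells and 59 in 786 WT cells, a ratio of CPM of 2.86, which was 4.82 without doublet removal. The Ccl19 Srpx subtype had 304 CPM in AC8 and 158 CPM in WT, a ratio of 1.92. In the Cilp Mfap4 subtype, marked by matrix genes, the levels of 401 CPM in AC8 and 315 CPM in WT were nearest to each other, with a ratio of 1.27 (1.03 to 1.58).

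The AC8 order of subtypes was thus led by Pi16 Cd248 and the WT order by Cilp Mfap4, and the intervals of these leading subtypes did not overlap that of the next in their library. The share of genes at least 1.5-fold higher in AC8 was 4.91% in the Pi16 Cd248, 2.2% in the Cxcl14 Dpep1, 4.33% in the Ccl19 Srpx and 6.09% in the Cilp Mfap4 subtype. A further 99 AC8 and 339 WT fibroblast-like cells, 6.47% and 17.9% of the class, were given no subtype and had 19 Timp1 UMIs in AC8 and 90 in WT, a ratio of CPM of 0.847 (0.488 to 1.40). Over the 9 sub-clusters behind the subtypes, 8 had enough Timp1 UMIs, and Timp1 was higher in AC8 in 7 of them, with ratios up to 6.93. In the other, of 24 AC8 and 236 WT cells given no subtype, 4 AC8 and 84 WT UMIs gave a ratio of 0.412 (0.110 to 1.09).

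**Figure D3:**
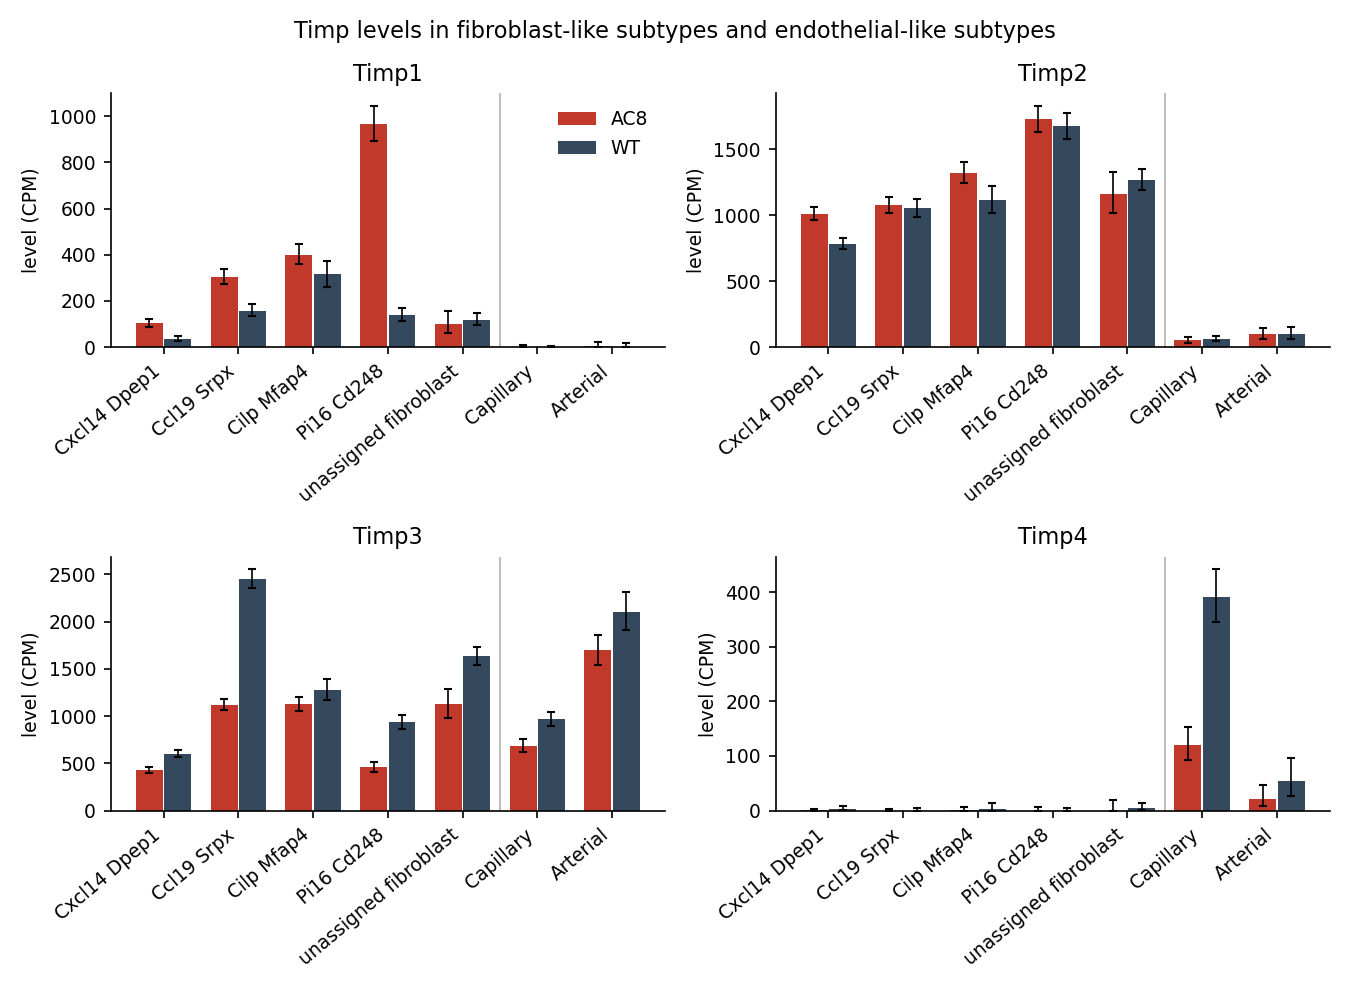
Levels of the 4 genes (CPM, linear axes) in the fibroblast-like subtypes, left of the grey line, and the endothelial-like subtypes, right of it, with AC8 bars left of WT bars and 95% counting intervals. The tallest Timp1 bar is the AC8 Pi16 Cd248 subtype at 968 CPM, and the tallest Timp4 bar is WT capillary-like cells at 391 CPM.

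Timp1 molecules were gathered in few cells. The 1% of AC8 fibroblast-like cells with the most Timp1, 16 cells, held 41.2% of its UMIs, and the 19 such WT cells held 27.7%. For Timp2 the same share of cells held 5.32% in AC8 and 6.51% in WT, and for Timp3 9.44% in AC8 and 9.69% in WT. A single AC8 cell of 16856 UMIs carried 201 Timp1 UMIs, 13.6% of the class total, together with 75 UMIs of the fibroblast gene Dcn and 29 of Tnc, and with 0 of the leukocyte gene Ptprc and 0 of the endothelial gene Pecam1. The leading WT cell had 41 Timp1 UMIs and 84 UMIs of the chemokine gene Ccl2. Without the leading cell of each library the ratio of CPM was 2.72.

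**Figure D4:**
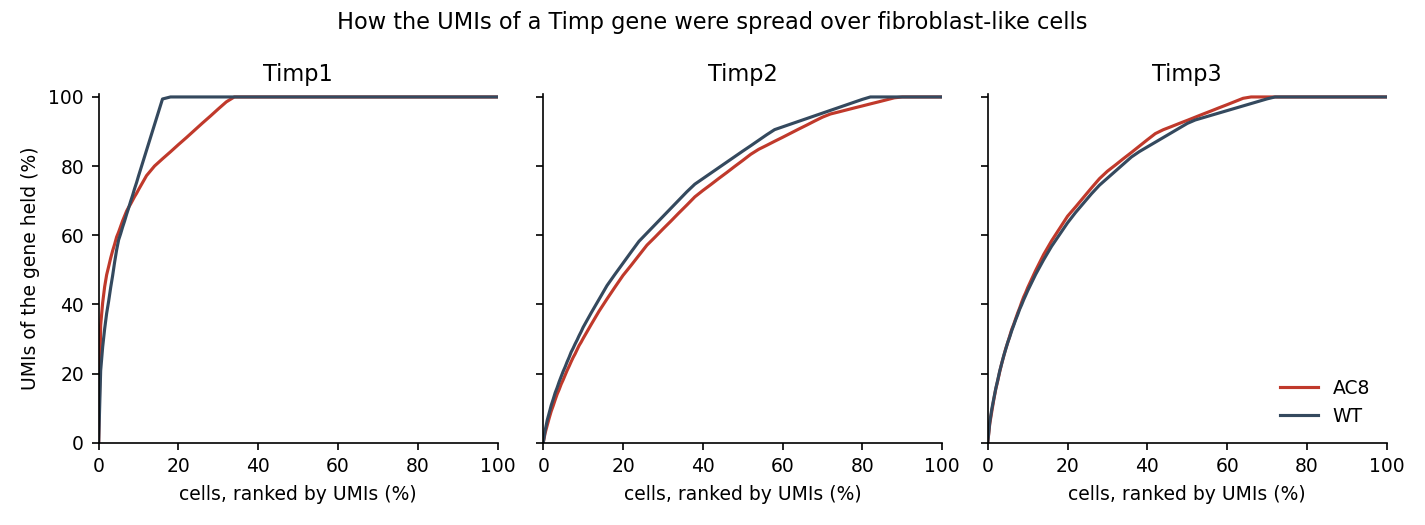
Share of a gene's UMIs (%) held by fibroblast-like cells ranked from most to fewest UMIs of that gene (% of cells), for Timp1, Timp2 and Timp3 in AC8 and WT. The Timp1 curves rise most steeply, with 41.2% of AC8 and 27.7% of WT UMIs in the top 1% of cells.

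At a finer resolution of clustering, a small sub-cluster held many of these cells. It was led by Tnc, the matrix glycoprotein tenascin C, with Timp1 next, and with Ccl2, Ccl7, Ccl8, Cthrc1 and Thbs4 among its 10 leading genes, and it was singled out after its Timp1 level had been seen. It had 22 AC8 cells, 1.44% of the class (0.904 to 2.17), and 6 WT cells, 0.316% (0.116 to 0.686). Its Timp1 level was 3964 CPM in AC8 and 2728 CPM in WT, and it held 438 of the 1482 AC8 and 45 of the 513 WT Timp1 UMIs of fibroblast-like cells. The 22 AC8 cells held 34 Tnc UMIs in all. The AC8 cell with 201 Timp1 and 29 Tnc UMIs was among them, so the lead of Tnc and the AC8 Timp1 level rest largely on that cell. The level of the sub-cluster without it was not computed.

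As a sub-cluster of their own, these cells were given no subtype, with marker scores of 0.475 for Ccl19 Srpx and 0.369 for Pi16 Cd248. In the main clustering most of them, 18 in AC8 and 6 in WT, lay in the Pi16 Cd248 subtype. Without them Timp1 in that subtype was at 354 CPM in AC8 and 74.6 CPM in WT, a ratio of 4.75 (3.46 to 6.63), and its AC8 interval overlapped that of the Cilp Mfap4 subtype. In all fibroblast-like cells without them Timp1 was at 245 CPM in AC8 and 107 CPM in WT, a ratio of 2.28 (2.04 to 2.55). The Timp1 difference was therefore present among the other fibroblast-like cells and smaller there.

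Outside fibroblast-like cells, Timp1 counts were low. Macrophage-like cells had 28 Timp1 UMIs in 722 AC8 cells and 3 in 581 WT cells, levels of 10.6 CPM in AC8 and 2.23 CPM in WT, and 21 of the 28 lay in a cluster led by Spp1, Gpnmb and Trem2 that had 135 AC8 but only 7 WT cells. Within the 2 other macrophage-like clusters Timp1 had 5 and 2 UMIs in AC8 and 1 and 1 in WT. The 8 fibroblast markers summed to 321.8 CPM in AC8 and 322.0 CPM in WT macrophage-like cells, with all 8 present in each, and among them Dcn was at 33.0 CPM in AC8 and 80.1 CPM in WT. The part of fibroblast RNA in these Timp1 counts was not tested.

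Timp2 differed little between the genotypes. In fibroblast-like cells it had 5245 UMIs in AC8 and 4775 in WT, and the AC8 over WT ratio of CPM was 1.10 (1.06 to 1.14). Thinned to 1000 UMIs, 63.0% of AC8 and 60.6% of WT fibroblast-like cells had a Timp2 UMI, against 0.683% of AC8 and 1.77% of WT B cell-like cells, whose median depths were 1170 UMIs in AC8 and 1227 in WT. Unthinned, the fibroblast shares were 88.9% in AC8 and 81.7% in WT. By subtype, Timp2 was highest in Pi16 Cd248 cells, at 1728 CPM in AC8 and 1676 CPM in WT. The lowest values were in Cxcl14 Dpep1 cells, at 1013 CPM in AC8 and 783 CPM in WT, and there the ratio was largest, 1.29 (1.20 to 1.39).

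That ratio rests on sub-clusters of unlike make-up. Of Cxcl14 Dpep1 cells, 404 of 577 AC8 cells lay in a sub-cluster that held 29 WT cells, and 478 of 786 WT cells in one that held 38 AC8 cells. Within the sub-clusters Timp2 was at 1040 CPM in AC8 and 934 CPM in WT in the first of these, and at 607 CPM in AC8 and 714 CPM in WT in the second, with both intervals of the ratio including 1. The remaining sub-cluster, of 135 AC8 and 279 WT cells, had 1030 CPM in AC8 and 896 CPM in WT. Over all 9 fibroblast sub-clusters Timp2 was higher in AC8 in 6 and lower in 3, with ratios from 0.795 to 1.32. The small Timp2 difference thus had no single direction within the class.

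Macrophage-like cells had 1482 Timp2 UMIs in AC8 and 695 in WT, with a ratio of CPM of 1.09 (0.996 to 1.19) that included 1. Timp2 differed between the macrophage-like clusters in both libraries. The cluster led by Lyve1 and Folr2, genes of long-lived resident macrophages, had Timp2 at 813 CPM in AC8 and 670 CPM in WT, a ratio of 1.21 (1.08 to 1.36). The cluster that carried MHC class II genes such as H2-Ab1 and H2-Eb1 had 295 CPM in AC8 and 351 CPM in WT, a ratio of 0.838 (0.684 to 1.03). Ahead of those genes, it was led within the class by the red cell and neutrophil genes Hbb-bs, S100a9, S100a8 and Hba-a1. The Spp1-led cluster had 369 CPM in its 135 AC8 cells and 481 CPM in its 7 WT cells.

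Timp3 was lower in AC8 fibroblast-like cells, at 770 CPM in AC8 and 1279 CPM in WT, a ratio of 0.602 (0.576 to 0.628). Thinned to 1000 UMIs, 41.7% of AC8 and 55.4% of WT fibroblast-like cells had a Timp3 UMI, against 1.66% of AC8 and 2.24% of WT macrophage-like cells, whose median depths were 3210 UMIs in AC8 and 1998 in WT. Unthinned, the fibroblast shares were 64.9% in AC8 and 71.6% in WT. On the log2(CPM + 10) scale the difference of -0.73 put Timp3 at place 100 from the lowest of 10620 genes. Unlike Timp1, it did not rest on few cells, since 185 AC8 and 239 WT cells were needed to reach 50% of its UMIs, against 36 AC8 and 71 WT cells for Timp1.

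The Timp3 level was lower in AC8 in every fibroblast subtype, but not by the same amount. The Ccl19 Srpx subtype, which had the highest Timp3 in WT, was at 1121 CPM in AC8 and 2453 CPM in WT, a ratio of 0.457 (0.426 to 0.490). The Pi16 Cd248 subtype was at 463 CPM in AC8 and 941 CPM in WT, a ratio of 0.493 (0.428 to 0.566). Cxcl14 Dpep1 cells were at 426 CPM in AC8 and 604 CPM in WT, a ratio of 0.705. Cilp Mfap4 cells were closest, at 1127 CPM in AC8 and 1278 CPM in WT, a ratio of 0.882 (0.790 to 0.985), and with cells of at least 2000 UMIs that ratio was 1.03.

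The top of the Timp3 order therefore differed between the libraries. In AC8 the Ccl19 Srpx and Cilp Mfap4 levels had overlapping intervals, while in WT Ccl19 Srpx cells stood above the other subtypes. The share of genes at least 1.5-fold lower in AC8 was 10.3% in the Ccl19 Srpx subtype and 8.66% in the Pi16 Cd248 subtype, where Timp3 was among them, and 7.4% in the Cxcl14 Dpep1 and 9.54% in the Cilp Mfap4 subtype, where it was not. Over the 9 fibroblast sub-clusters Timp3 was lower in AC8 in 9, with ratios from 0.403 to 0.882, and in 8 the interval lay below 1. This included sub-clusters held mostly by 1 library, such as the one with 38 AC8 and 478 WT cells, where Timp3 was at 245 CPM in AC8 and 608 CPM in WT.

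**Figure D5:**
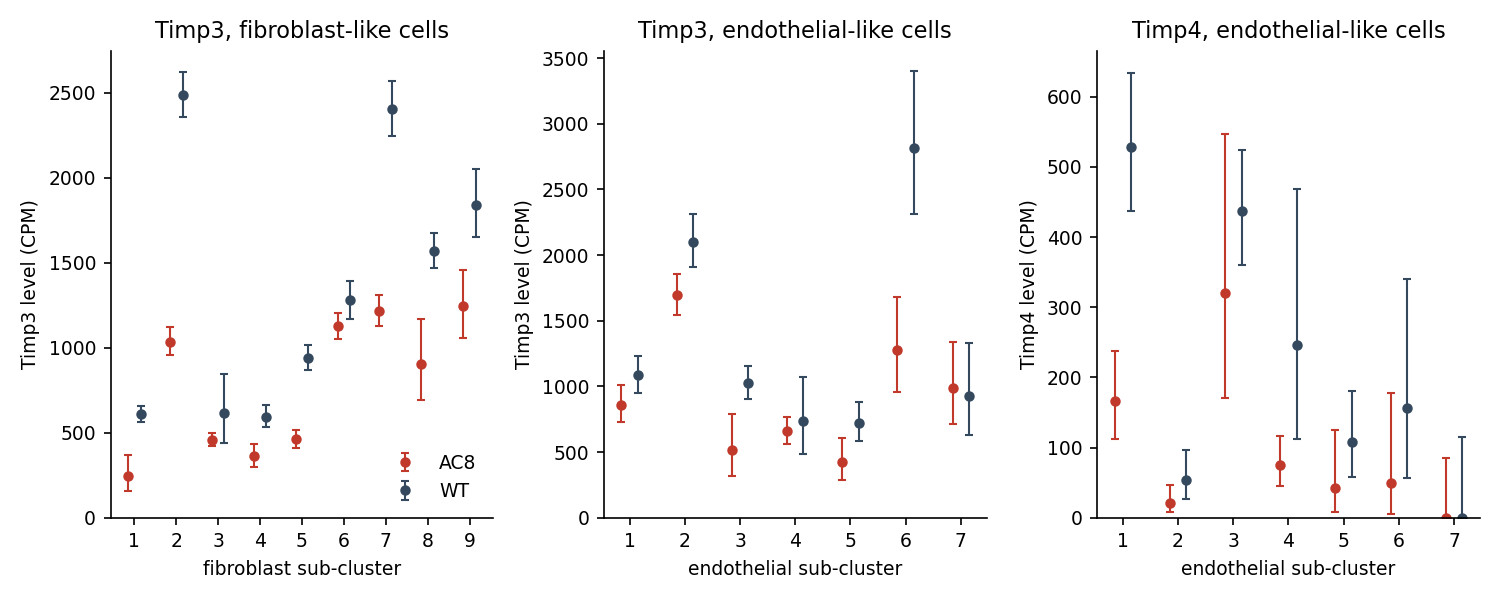
Levels (CPM, linear axes) of Timp3 in the 9 fibroblast-like and 7 endothelial-like sub-clusters and of Timp4 in the endothelial-like sub-clusters, with AC8 points left of WT points and 95% counting intervals. AC8 Timp3 points lie below their WT points in all 9 fibroblast-like sub-clusters and in 6 of 7 endothelial-like ones.

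Several measures moved with these fibroblast differences, and their part in them was not tested. Of 22 genes that rise when tissue is dissociated, 7 were at least 1.5-fold lower in AC8 fibroblast-like cells, against 2.92% of all measured genes. None was higher, against 0.829% of all measured genes. Among the 7 were Fosb at 974 CPM in AC8 and 1556 CPM in WT and Hspa1a at 315 CPM in AC8 and 557 CPM in WT. The 6 neutrophil markers summed to 6.40 CPM in AC8, with 4 of 6 present, and 45.4 CPM in WT, with 5 of 6 present. The 8 endothelial markers summed to 96.2 CPM in AC8 and 179.9 CPM in WT, with all 8 present in each. The dissociation genes had a median log2 difference of -0.34, against -0.05 over all genes measured in the class.

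In endothelial-like cells Timp3 was also lower in AC8. Capillary-like cells had 373 Timp3 UMIs in 365 AC8 cells and 631 in 453 WT cells, levels of 686 CPM in AC8 and 968 CPM in WT, a ratio of 0.708 (0.622 to 0.806). Arterial-like cells held more, 1695 CPM in AC8 and 2102 CPM in WT, with a ratio of 0.806 (0.706 to 0.921). Both ratios were short of 1.5-fold. Thinned to 1000 UMIs, 46.3% of AC8 and 57.6% of WT capillary-like cells had a Timp3 UMI, and unthinned 57.3% of AC8 and 67.5% of WT cells.

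Timp3 was lower in AC8 in 6 of the 7 endothelial-like sub-clusters, with ratios down to 0.455, and at 992 CPM in AC8 and 931 CPM in WT in the seventh, which carried the endocardial gene Npr3. The capillary-like result rests on shallow cells. With cells of at least 2000 UMIs, 35 AC8 and 33 WT capillary-like cells remained, with 74 and 71 Timp3 UMIs, and the ratio was 0.975 (0.694 to 1.37). The red cell gene Hbb-bs, a sign of blood RNA, was at 829 CPM in AC8 and 1786 CPM in WT capillary-like cells, and at 18.1 CPM in AC8 and 1137 CPM in WT arterial-like cells. The pericyte gene Rgs5 was at 51.5 CPM in AC8 and 233 CPM in WT capillary-like cells. The part of these in the Timp3 difference was not tested.

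In mural-like cells, the pericytes and smooth muscle around vessels, Timp3 had 157 UMIs in 75 AC8 cells and 116 in 68 WT cells, and the ratio of 1.11 (0.864 to 1.42) included 1. The class was small and uneven. Smooth muscle-like cells, 57 in AC8 and 27 in WT, had Timp3 at 768 CPM in AC8 and 983 CPM in WT, a ratio of 0.781 (0.550 to 1.12). A sub-cluster of 10 AC8 and 19 WT cells that also carried endothelial genes, with Pecam1 at 817 CPM in AC8 and 517 CPM in WT, had Timp3 at 2136 CPM in AC8 and 1125 CPM in WT. Without it the mural-like ratio was 0.901 (0.648 to 1.26), so the direction in mural-like cells depended on these cells. Scaling by the median ratio over genes shifted this class by 0.13 on the log2 scale and gave a ratio of 1.01.

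B cell-like cells had Timp3 at 39.6 CPM, or 15 UMIs, in AC8 and at 224 CPM, or 35 UMIs, in WT. Of the 35 WT UMIs, 18 lay in 2 cells, and 12 of 113 WT cells had any. The endothelial genes Cdh5 and Gpihbp1 were also present there, Cdh5 at 5.29 CPM in AC8 and 109 CPM in WT and Gpihbp1 at 18.5 CPM in AC8 and 154 CPM in WT. Genes at least 1.5-fold lower in AC8 made up 11.9% of the 2897 measured in this class and those higher 9.6%. The 8 endothelial markers summed to 277 CPM in AC8 and 1557 CPM in WT B cell-like cells. The 6 lymphatic markers summed to 5.29 CPM in AC8 and 718 CPM in WT. Whether the Timp3 of this class was free RNA was not tested. With the Timp3 levels of B cell-like cells subtracted, the fibroblast ratio of Timp3 was 0.692 and the capillary ratio 0.869. With those of T cell-like cells, 40.7 CPM in AC8 and 26.7 CPM in WT, they were 0.582 and 0.685.

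Timp4 was lower in AC8 capillary-like cells, the cells that held most of it. They had 65 Timp4 UMIs in AC8 and 255 in WT, levels of 120 CPM in AC8 and 391 CPM in WT, a ratio of 0.305 (0.229 to 0.402). On the log2(CPM + 10) scale the difference of -1.63 put Timp4 at place 6 from the lowest of 5910 measured genes. Thinned to 1000 UMIs, 10.4% of AC8 and 25.4% of WT capillary-like cells had a Timp4 UMI, at median depths of 1338 UMIs in AC8 and 1274 in WT, and unthinned 13.4% of AC8 and 30.9% of WT cells. Among fibroblast-like cells that share was 0.0654% in AC8 and 0.211% in WT.

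Arterial-like cells held much less Timp4, 6 UMIs or 21.8 CPM in AC8 and 11 UMIs or 53.9 CPM in WT, and the ratio of 0.404 (0.123 to 1.19) included 1. Of the 4 capillary-like sub-clusters, 2 had at least 30 Timp4 UMIs. The largest, with 133 AC8 and 173 WT cells, had Timp4 at 167 CPM in AC8 and 529 CPM in WT, a ratio of 0.315 (0.204 to 0.475). In the next, with 28 AC8 and 180 WT cells, it was at 320 CPM in AC8 and 436 CPM in WT, a ratio of 0.733 (0.379 to 1.30) that included 1. In a sub-cluster of 170 AC8 and 26 WT cells led by interferon-induced genes such as Rsad2 and Ifit1, it was at 75.0 CPM in AC8 and 246 CPM in WT, a ratio of 0.304 (0.131 to 0.764) from 19 AC8 and 9 WT UMIs, and the fourth had 3 UMIs in 34 AC8 and 14 in 74 WT cells. With cells of at least 2000 UMIs, 5 AC8 and 38 WT Timp4 UMIs remained in capillary-like cells, a ratio of 0.123.

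Other capillary genes were not all lower with Timp4. Of the 6 capillary markers, Aqp1, a water channel, was at 737 CPM in AC8 and 1542 CPM in WT, a ratio of 0.478, and Gpihbp1, which holds lipoprotein lipase on the capillary wall, was at 1401 CPM in AC8 and 2009 CPM in WT, a ratio of 0.698. Rgcc had a ratio of 0.733 (0.662 to 0.811), and these 3 had intervals below 1. Car4 had a ratio of 1.06, Kdr of 0.970 and Cd300lg of 0.959, all with intervals that included 1. The 6 markers summed to 5927 CPM in AC8 and 7798 CPM in WT. The ratios of the 8 endothelial markers lay between 0.790 for Fabp4 and 1.47 for Egfl7. As for Timp3, Hbb-bs was at 829 CPM in AC8 and 1786 CPM in WT in these cells, and its part was not tested. Syn2, the host gene of Timp4, had 14 UMIs in AC8 and 9 in WT capillary-like cells, too few to be measured, with a ratio of CPM of 1.86 (0.751 to 4.88). Of the 21 dissociation genes measured in these cells, 2 were at least 1.5-fold higher in AC8, against 5.79% of all genes measured there. They were Ier3 at 758 CPM in AC8 and 399 CPM in WT and Socs3 at 798 CPM in AC8 and 477 CPM in WT. Another 2 were lower, against 7.02% of all genes. These were Hsph1 at 108 CPM in AC8 and 264 CPM in WT and Dnaja1 at 850 CPM in AC8 and 1297 CPM in WT. Their part in the Timp3 and Timp4 differences of these cells was not tested.

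Of 17 MMP genes, 9 were measured in fibroblast-like cells and none was at least 1.5-fold apart. Of all measured genes, only 0.829% were that much higher in AC8 and 2.92% lower, so a count of 0 among 9 says little. The median log2 difference of the 9 was 0.02, against -0.05 over all measured genes. Mmp2, the gelatinase that Timp2 helps to activate, was at 845 CPM in AC8 and 832 CPM in WT, and Mmp14, its membrane-bound activator, was at 191 CPM in AC8 and 211 CPM in WT. Mmp3, or stromelysin, was at 188 CPM in AC8 and 163 CPM in WT. Mmp23 came nearest to the fold, at 319 CPM in AC8 and 216 CPM in WT.

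Of 19 other metalloproteases, 13 were measured in fibroblast-like cells and 2 were at least 1.5-fold lower in AC8, against 2.92% of all measured genes. These were Adamts1, at 152 CPM in AC8 and 284 CPM in WT, and Adamts5, at 229 CPM in AC8 and 388 CPM in WT, both enzymes that cut aggrecan-type proteoglycans and that Timp3 can inhibit. Adam17, a known target of Timp3 that was named with its values already seen, was at 58.7 CPM in AC8 and 66.2 CPM in WT. The median log2 difference of the 13 was -0.34.

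Of 15 binding partners and other protease inhibitors, 11 were measured in fibroblast-like cells and 3, Itgb1, Kdr and Reck, were at least 1.5-fold lower in AC8, against 2.92% of all measured genes, with a median of -0.20 over the 11. Reck, a membrane-anchored MMP inhibitor, was at 33.1 CPM in AC8 and 57.5 CPM in WT, and Itgb1, an integrin chain, was at 328 CPM in AC8 and 514 CPM in WT. Kdr, the VEGF receptor to which Timp3 can bind, had 44 UMIs in AC8 and 88 in WT here and is an endothelial gene. Cd63, the Timp1 partner, was at 1150 CPM in AC8 and 1039 CPM in WT, and the endocytic receptor Lrp1, which clears protease and inhibitor complexes, was at 997 CPM in AC8 and 1022 CPM in WT.

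In macrophage-like cells, where Timp2 was nearly level, all 5 measured MMPs were at least 1.5-fold apart, 3 higher and 2 lower in AC8, against 5.68% of genes higher and 6.33% lower. Mmp12, the macrophage elastase, was at 404 CPM in AC8 and 60.8 CPM in WT, Mmp14 at 38.7 CPM in AC8 and 5.19 CPM in WT, and Mmp19 at 23.1 CPM in AC8 and 10.4 CPM in WT. Mmp13, a collagenase, was at 41.0 CPM in AC8 and 151 CPM in WT, and Mmp9, a gelatinase, had 14 UMIs in AC8 and 27 in WT, a ratio of CPM of 0.265. The Spp1-led cluster, with 135 AC8 and 7 WT cells, had Mmp12 among its leading genes, so the make-up of the class moved with these values. In macrophage-like cells the 6 neutrophil markers summed to 109 CPM in AC8 and 519 CPM in WT, with 5 of 6 present in each. The 4 red cell markers summed to 4.93 CPM in AC8 and 186 CPM in WT. The part of the make-up and of these markers in the MMP differences was not tested.

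Among the other lists in macrophage-like cells, Adam8 was at 39.8 CPM in AC8 and 10.4 CPM in WT, Adam19 at 67.5 CPM in AC8 and 145 CPM in WT, and Cd63 at 658 CPM in AC8 and 429 CPM in WT. In capillary-like cells 1 of 17 MMPs, Mmp15, was measured, at 223 CPM in AC8 and 227 CPM in WT. Of the other metalloproteases there, 7 were measured and 2 were lower in AC8, against 7.02% of all measured genes, Adam10 at 129 CPM in AC8 and 199 CPM in WT and Adamts5 at 23.9 CPM in AC8 and 43.0 CPM in WT. Itgb1, at 583 CPM in AC8 and 928 CPM in WT, was the 1 of 6 measured partners that was lower.

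The genes with the most similar pattern over 14 groups of cells in both libraries, 28 points that share their libraries and partly their cells, were taken for each member from 4648 genes by Pearson's r of log levels, as a description. For Timp1 they were 1700019D03Rik, Pcolce2, Thbs3, Htra4 and Adamtsl4, led by an r of 0.927. Of these, Pcolce2, an enhancer of procollagen processing, was at 492 CPM in AC8 and 328 CPM in WT fibroblast-like cells, and the other 4 had ratios from 0.984 to 1.20, below the 2.89 of Timp1. For Timp2 they included Nupr1, with an r of 0.958, Rnase4, Cd302 and Fam20c.

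For Timp3 they were Emp2, with an r of 0.972, Nfib, Fermt2, Plpp3 and Cttn, whose fibroblast ratios, the lowest of them 0.752 for Nfib, lay above the 0.602 of Timp3. In capillary-like cells Emp2 had a ratio of 0.584, below the 0.708 of Timp3. For Timp4 they were Pcdh12, with an r of 0.968, Ccdc85a, C1qtnf9, Car4 and Gpihbp1. Their capillary ratios ran from 0.592 for Ccdc85a to 1.06 for Car4, all above the 0.305 of Timp4. Of the genes named for Timp2, Rnase4 had a fibroblast ratio of 0.772 and Nupr1 of 1.53, on both sides of the 1.10 of Timp2.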

How the data were processed

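The deposited values are counts of UMIs per gene in each heart cell, and per the labels' protocols the authors obtained them from 10x Genomics libraries by alignment and demultiplexing in Cell Ranger. The submitters' processing notes name mm10 as build and give no Cell Ranger version, and the use of strand is not stated. Cells with at least 1000 UMIs, 500 genes and at most 10% mitochondrial UMIs were kept, and likely doublets (145 AC8 and 173 WT) were removed by a score with an assumed rate of 0.8% per 1000 cells. After scaling to 10000 per cell, 2000 variable genes without Timp1 to Timp4 gave 30 principal components, a graph of 15 neighbours and Leiden clusters at a resolution of 1, named by markers (at least 3 detected in 10% of cells). Fibroblast-, endothelial- and mural-like cells were clustered again and named at a marker score of at least 0.6, a step set after the first clusters had been seen. The members and lists were chosen with earlier results of these data known.

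Counts were summed per class and library and divided by the class total. Intervals are exact at 95% and treat UMIs as independent: Poisson for CPM levels, a binomial split of the summed UMIs for ratios, and Clopper-Pearson for shares. Genes with at least 30 summed UMIs were measured, with a pseudocount of 10 CPM on the log2 scale. In each list, genes at least 1.5-fold apart and the 2 to 4 with the highest levels could be named, and the 5 genes most like each member, of which 1 is not reported here. Scripts were tested on simulated counts. The work used Python 3.11.15 with scipy 1.17.1 for intervals, leidenalg 0.10.2 for clusters and scikit-learn 1.9.0 for components.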

Additional observations from a re-analysis of the deposited data

How the results depend on the processing

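No paired analysis was possible because each genotype had 1 library. The fibroblast-like Timp1 ratio stayed between 1.97 and 3.05 over 11 alternatives. It lay outside the interval of 2.89 as a mean over cells (2.50), as a share of cells at 1000 UMIs (1.97) and without the Tnc-led sub-cluster (2.28). The last was chosen after seeing the data, like the single-cell, T cell-like, mural and single sub-cluster alternatives. Ratios of shares of cells in this section come from a separate random draw of 1000 UMIs per cell. They can therefore differ from the ratios of the thinned shares given above, and the spread over draws was not computed. Timp2 in fibroblast-like cells was 1.16 with median-ratio scaling. Timp3 there was 0.635 with that scaling, 0.766 as a share of cells and 0.692 with B cell-like levels subtracted, and in capillary-like cells 0.975 with at least 2000 UMIs and 0.869 with B cell-like levels subtracted. Timp3 in mural-like cells was 0.856 as a share of cells and lay below 1 under 3 of 10 alternatives. Timp4 in capillary-like cells was 0.123 with at least 2000 UMIs (5 AC8 and 38 WT UMIs) and 0.414 as a share of cells, below 1 under all 10. The cause of these moves was not tested. Partner genes past 1.5-fold in either direction over 4 classes (fibroblast-, endothelial-, macrophage- and B cell-like) numbered 17 of 76. With at least 100 summed UMIs they numbered 11 of 54. The shares of all measured genes are per direction, so both shares of a class together are the background for these counts. Higher in AC8 were 0.829% (fibroblast), 4.27% (endothelial), 5.68% (macrophage) and 9.6% (B cell). Lower, in the same order of classes, were 2.92%, 5.47%, 6.33% and 11.9%. Member and subtype ratios of CPM, without pseudocount, past 1.5-fold in either direction numbered 5 of 12 and 6 of 9 with no minimum of UMIs. They numbered 5 of 9 with the Timp genes open as variable genes, and 5 or 6 of 12 otherwise. Of all genes measured in the 4 subtypes, 2.2% to 6.09% were at least 1.5-fold higher in AC8 and 7.4% to 10.3% lower, with the pseudocount and in the main setting. Timp4 in mural-like cells rests on 3 UMIs and gave no usable ratio, and the Cilp Mfap4 subtype was not found without a minimum of UMIs or with the Timp genes open as variable genes, so those settings have no value for it. Shallow endothelial-like and mural-like cells limit what those classes can show.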
